A study of Mus musculus with 10 samples.

Results

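The transcripts described here belong to 4 genes of creatine metabolism: Gatm and Gamt, the enzymes of creatine synthesis, Slc6a8, the creatine transporter, and Ckb, a creatine kinase. They are 4 of 22180 genes measured on 10 arrays of mouse T helper cell cultures. Gatm was chosen by its measured difference between Th17 and the other cultures in an earlier look at these data, and the other members because they make, import or use creatine. The Th17 values of Gatm are therefore given as a description with no test, and the open question was whether the rest of the pathway differed with it. Each member had 1 probe set with a single gene symbol (Gatm 17390810, Gamt 17242842, Ckb 17284114, Slc6a8 17535607).

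Creatine stores energy as phosphocreatine and buffers ATP where demand is high. Gatm, a mitochondrial amidinotransferase, moves the amidino group of arginine onto glycine and so makes guanidinoacetate and ornithine, the committed step of synthesis. Gamt methylates guanidinoacetate to creatine with a methyl group from S-adenosylmethionine. Cells that do not make creatine import it through Slc6a8, a sodium- and chloride-dependent carrier of the plasma membrane, and creatine kinases such as the cytosolic Ckb pass phosphate between creatine and ATP. In mammals Gatm is best known from kidney and pancreas, and Gamt from liver.

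All cultures held CD4 positive cells from spleens of wild-type (WT) female Balb/c mice aged 10 to 14 weeks, stimulated through CD3 by an antibody at 4 µg/ml and through CD28 by one at 30 ng/ml. Th17 cultures (n = 4) also received IL-6 (20 ng/ml), TGFβ (5 ng/ml), IL-23 (10 ng/ml) and an antibody against IFNγ (10 µg/ml). Th2 cultures (n = 3) received IL-4 (100 ng/ml) and the same antibody against IFNγ (10 µg/ml), and Th0 control cultures (n = 3) received the 2 stimulating antibodies alone, so both comparisons with Th0 also differ in the antibody against IFNγ. Medium was exchanged at 72 h, and no source used here gives the hour of harvest. Replicates are biological by their titles, without word of separate animals, so p-values cover only the spread among these samples, which may be technical.

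Of the T cell identity genes 9 of 12 were measured, and their mean log2 value lay between 8.21 and 8.88 on Th17 arrays, between 8.23 and 9.01 on Th2 arrays and between 8.63 and 9.21 on Th0 arrays. Il17f, a signature cytokine of Th17 cells, was at 10.26 ± 0.57 in Th17, 6.22 ± 0.65 in Th2 and 5.41 ± 0.38 in Th0 cultures (SD, n = 4, 3 and 3). The Th2 label was not borne out by a called gene, in a comparison where 0% of all genes were called. Gata3, the Th2 regulator, differed by -0.23 and Il4 by 0.71 between Th2 and Th0 cultures (limma, adjusted p = 0.927 and 0.819). Il4 averaged 8.98 in Th2, 8.27 in Th0 and 7.17 in Th17 cultures, with a Th17 minus Th2 difference of -1.81 (limma, adjusted p = 0.241). The log2 difference of Gata3 between Th17 and Th0 cultures was -1.92 (limma, adjusted p = 0.0381). Arrays differed within groups. Component 1 of a principal component analysis carried 35.8% of the variance and set Th17 replicate 4 and Th2 replicates 2 and 3 (37.5 to 55.8) apart from the other arrays (-0.96 or below). All 12 basophil and mast cell markers were measured, and their mean log2 value was 5.67 and 5.58 on Th17 replicates 2 and 3 and 7.01 on Th0 replicate 1, against 3.42 to 4.30 on the other arrays. On the linear scale their summed level ran from 142 to 1435 in Th17, from 164 to 359 in Th2 and from 395 to 3802 in Th0 cultures.

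The promoter windows of 3 members are shown so that the start of the gene with high Th17 values can be read beside those of Gamt and Ckb. They come from RefSeq, build GRCm38.p6, all on the minus strand, and each covers 250 bases before to 50 after the gene's start: Gatm at chr2:122611228-122611527, Gamt at chr10:80260963-80261262 and Ckb at chr12:111672289-111672588. 3 of 4 members matched the table. Capitals mark every match, on either strand, to 7 short motifs.
Gatm: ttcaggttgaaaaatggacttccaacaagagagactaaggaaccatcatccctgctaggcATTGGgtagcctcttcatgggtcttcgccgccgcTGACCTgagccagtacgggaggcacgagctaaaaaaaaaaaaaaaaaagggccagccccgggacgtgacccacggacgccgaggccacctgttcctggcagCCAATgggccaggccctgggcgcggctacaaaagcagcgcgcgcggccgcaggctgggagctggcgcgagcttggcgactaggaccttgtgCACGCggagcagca
Gamt: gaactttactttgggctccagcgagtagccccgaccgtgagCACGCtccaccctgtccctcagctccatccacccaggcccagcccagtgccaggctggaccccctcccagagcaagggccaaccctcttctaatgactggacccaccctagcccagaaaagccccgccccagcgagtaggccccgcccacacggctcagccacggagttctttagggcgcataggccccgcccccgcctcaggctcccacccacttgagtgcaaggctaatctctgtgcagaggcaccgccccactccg
Ckb: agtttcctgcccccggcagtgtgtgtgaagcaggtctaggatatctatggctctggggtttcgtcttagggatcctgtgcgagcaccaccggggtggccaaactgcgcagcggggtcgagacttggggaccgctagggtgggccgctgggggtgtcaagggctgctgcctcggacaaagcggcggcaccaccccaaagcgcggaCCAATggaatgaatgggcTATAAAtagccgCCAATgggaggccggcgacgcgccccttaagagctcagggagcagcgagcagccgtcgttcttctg
The motifs were AGGTCA (bound by ROR and other nuclear receptors), TTCNNNGAA (STAT), TGANTCA (AP-1 and BATF), GCGTG (core of the aryl hydrocarbon receptor site), CAGAC (SMAD), CCAAT and TATAAA. No matches overlapped. The Gatm window held 1 AGGTCA match that begins at base -156 and lies on the opposite strand, so that the printed letters are TGACCT, a motif present in 16.3% of 32851 promoter windows, and none was found in the Gamt and Ckb windows. GCGTG matched once in the Gatm window and once in the Gamt window (32.4% of windows hold it). CCAAT matched at 2 places in the Gatm window and 2 in the Ckb window (37.4% of windows), and TATAAA once in the Ckb window (13.6% of windows). TTCNNNGAA (8.3%), TGANTCA (7.81%) and CAGAC (49.6%) matched in none of the 3. G and C made up 60.7% of the Gatm, 66% of the Gamt and 63% of the Ckb window, against a median of 52.7% over all windows. These matches describe letters in short windows only.

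Gatm stood at log2 values of 7.995, 6.31, 6.81 and 7.76 on Th17 replicates 1 to 4, against 3.54, 2.79 and 3.28 on Th2 replicates 1 to 3 and 3.44, 3.65 and 3.27 on Th0 replicates 1 to 3. Every Th17 array lay above every other array by a wide margin, and the Th2 and Th0 arrays overlapped. Gatm averaged 7.22 ± 0.79 in Th17 (SD, n = 4), 3.20 ± 0.38 in Th2 (SD, n = 3) and 3.45 ± 0.19 in Th0 cultures (SD, n = 3). The difference was 3.76 ± 0.36 (SE), or 13.6-fold, from Th0 and 4.02 ± 0.36 (SE), or 16.2-fold, from Th2. The Th2 and Th0 values lie among the dim values of these arrays, so the folds are ratios of RMA values on a dim baseline and not of transcript amounts. Both comparisons share the Th17 arrays. Among all genes Gatm had the difference of rank 3 from Th0 and of rank 5 from Th2 on the RMA scale, with the same limit. Between Th2 and Th0 cultures, a comparison without the Th17 arrays, Gatm differed by -0.25 ± 0.39 (SE; 95% confidence interval -1.11 to 0.60; limma, adjusted p = 0.941), and no change was detectable between these 6 arrays. Gatm was chosen by its difference between Th17 and the other cultures. The shares of all genes called in the Th17 comparisons are therefore no yardstick for Gatm. They were 0.104% in Th17 against Th0 and 0.0766% in Th17 against Th2 (limma, adjusted p under 0.05).

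**Figure D1:**
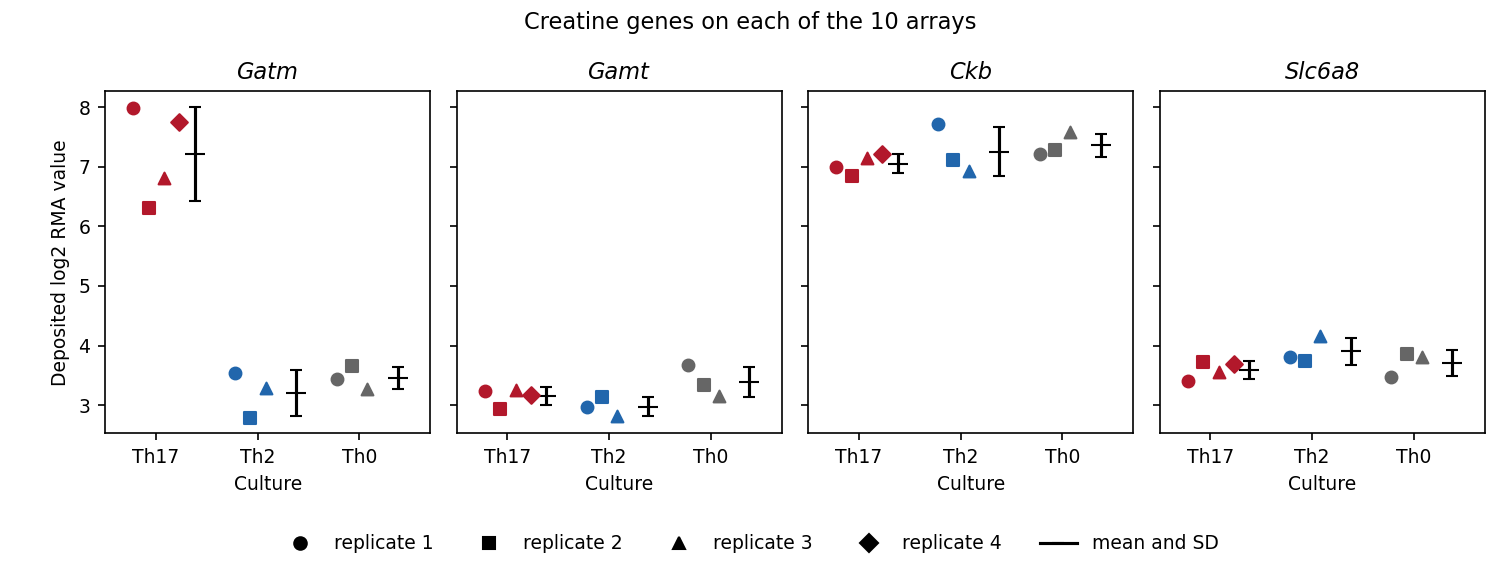
Deposited log2 RMA values (vertical axis) of Gatm, Gamt, Ckb and Slc6a8 on each array, by culture (horizontal axis). Symbols give the replicate and black bars the mean and SD. Gatm lies between 6.31 and 7.995 on Th17 arrays and at 3.65 or below elsewhere, whereas the groups lie close together for Gamt, Ckb and Slc6a8.

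Within Th17 cultures Gatm varied more than in the other cultures, with replicates 1 and 4 high and replicates 2 and 3 low. The low pair were the Th17 arrays with the high basophil and mast cell markers, among them Cpa3, a mast cell and basophil protease, which ran from 3.45 to 9.35 in Th17 cultures. Th0 replicate 1, the array highest in these markers, had Gatm at 3.44. Without these 3 arrays the difference of Gatm from Th0 was 4.42 and from Th2 4.68. It was larger than with all arrays because the low Th17 pair was left out, so it says nothing of where Gatm was expressed. The part of basophils and mast cells in the Gatm values was not tested. Without the 3 arrays apart on the first component the difference of Gatm from Th0 was 3.58. Myeloid markers (12 of 12 measured) had a mean log2 value of 4.09 on Th17 replicate 1 and 3.16 to 3.21 on the other Th17 arrays, and their part in the Gatm values was not tested. B cell markers (11 of 12 measured) averaged 4.27 on Th17 replicate 1 and 3.46 to 3.78 on the other Th17 arrays. They averaged 3.48 to 3.82 on Th2 and 3.68 to 4.32 on Th0 arrays, and their part in the Gatm values was not tested. CD8 and NK cell markers (9 of 10 measured) averaged 4.90 to 5.32 on Th17, 4.38 to 4.50 on Th2 and 4.57 to 5.26 on Th0 arrays. Of these 9, Klrd1, a lectin-like receptor chain of NK and T cells named after its values were seen, rose in Th17 cultures. It was at 6.21, 6.51, 7.17 and 5.84 on Th17 replicates 1 to 4, against 3.79, 3.70 and 3.99 in Th2 and 3.69, 4.85 and 3.89 in Th0 cultures. Its difference was 2.29 ± 0.33 (SE) from Th0 and 2.60 ± 0.33 (SE) from Th2 (limma, adjusted p = 0.0381 and 0.0177). The call against Th0 was lost in 11 of 18 alternatives (differences of 1.65 to 2.64; limma, adjusted p = 0.0245 to 0.705). Klrk1, a receptor of NK and T cells also named after its values were seen, averaged 4.38 in Th17, 3.44 in Th2 and 3.48 in Th0 cultures. Its differences of 0.90 from Th0 and 0.94 from Th2 were not called (limma, adjusted p = 0.582 and 0.444). Ncr1 and Klrb1c, receptors of NK cells, averaged 3.73 and 2.86 in Th17, 3.88 and 2.93 in Th2 and 3.63 and 2.77 in Th0 cultures. By value, 5 of the 9 markers were higher and 4 lower in Th17 than in Th0 cultures. Against Th2, 7 were higher and 2 lower. The part of such cells in the Gatm values was not tested. In bulk cultures such as these, fewer cells with a transcript and less of it per cell cannot be told apart.

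No difference of Gamt, which completes creatine synthesis, passed the test. Its log2 values were 3.24, 2.93, 3.26 and 3.17 on Th17 replicates 1 to 4, against 2.96, 3.14 and 2.82 in Th2 and 3.67, 3.34 and 3.16 in Th0 cultures. Th17 arrays lay among those of both other groups. The difference from Th0 was -0.24 ± 0.16 (SE; 95% confidence interval -0.59 to 0.12; limma, adjusted p = 0.999), whose upper bound is a ratio of 1.09 in RMA values. From Th2 it was 0.18 (95% confidence interval -0.18 to 0.53; limma, adjusted p = 0.948). Gamt lay among the dim values of these arrays, so the bound does not limit a change in transcript amount. In Th2 cultures every array lay below every Th0 array, as for 3.94% of all genes, by -0.41 (95% confidence interval -0.79 to -0.03), and this did not pass the test over all genes (limma, adjusted p = 0.770).

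Slc6a8, the import route, was low throughout. It was at 3.399, 3.72, 3.55 and 3.69 on Th17 replicates 1 to 4, against 3.81, 3.74 and 4.17 in Th2 and 3.46, 3.85 and 3.81 in Th0 cultures. Th17 arrays overlapped with Th0 arrays and lay just below the Th2 arrays. The difference from Th0 was -0.12 ± 0.16 (SE; 95% confidence interval -0.48 to 0.24; limma, adjusted p = 0.999). From Th2 it was -0.32 ± 0.16 (SE; 95% confidence interval -0.68 to 0.04; limma, adjusted p = 0.868), with no overlap between the groups, a pattern that 3% of all genes showed in that direction. Th2 differed from Th0 by 0.20 (95% confidence interval -0.19 to 0.58; limma, adjusted p = 0.877).

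Ckb, the cytosolic kinase that uses creatine, had high values on all arrays, and none of its differences passed the test. It was at 7.0007, 6.85, 7.15 and 7.22 on Th17 replicates 1 to 4, against 7.72, 7.11 and 6.93 in Th2 and 7.21, 7.28 and 7.59 in Th0 cultures. The Th17 and Th0 ranges met at their edges, and Th2 arrays spread across both. Its difference from Th0 was -0.30 ± 0.20 (SE; 95% confidence interval -0.74 to 0.13; limma, adjusted p = 0.999), with an upper bound of 1.097 as a ratio. From Th2 it was -0.20 (95% confidence interval -0.64 to 0.24; limma, adjusted p = 0.950), and Th2 differed from Th0 by -0.11 (95% confidence interval -0.58 to 0.36; limma, adjusted p = 0.958). Over the 10 arrays Pearson's r with Gatm was -0.39 for Ckb, 0.01 for Gamt and -0.55 for Slc6a8, given as a description of arrays that share their groups.

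**Figure D2:**
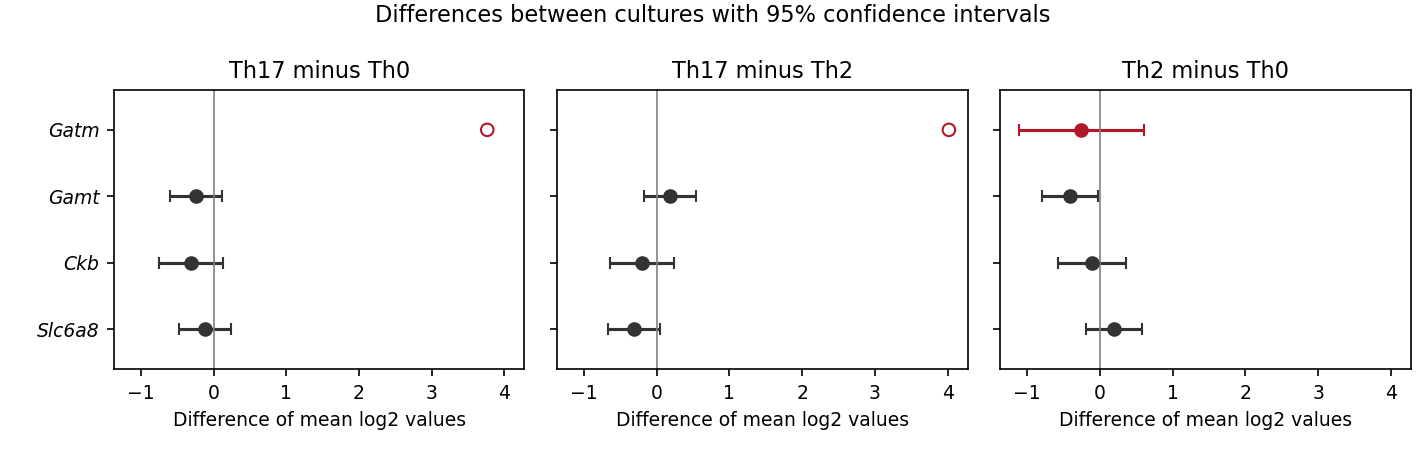
Differences of mean log2 values (horizontal axis) for the 4 genes in each comparison of cultures. Filled points carry 95% confidence intervals of the limma fit; open points mark the Gatm differences that chose the gene, shown without an interval. The intervals of Ckb and Slc6a8 include 0 in all 3 comparisons, and that of Gamt lies just below 0 in Th2 minus Th0 (-0.79 to -0.03).

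For a view of how dim values look on these arrays, 1088 olfactory receptor genes, a family used chiefly in the nose, had a median log2 value of 2.75 and a 95th percentile of 3.85 (means over 10 arrays). Taken on each array by itself, the 95th percentile of that family ran from 3.51 on Th2 replicate 1 to 4.53 on Th17 replicate 4. Gamt exceeded the percentile of its own array on 0 of 10 arrays and Slc6a8 on 2, Th2 replicate 1 and Th0 replicate 2. Ckb exceeded it on 10 of 10 arrays, and Gatm on 4 of 4 Th17 arrays and 1 of the other 6, Th2 replicate 1 (3.54). Probe sets respond differently and no detection call is in the table, so this describes signal and not presence. RMA compresses differences between dim values, so a small change of Gamt or Slc6a8, or of Gatm between Th2 and Th0 cultures, may not have been detectable.

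**Figure D3:**
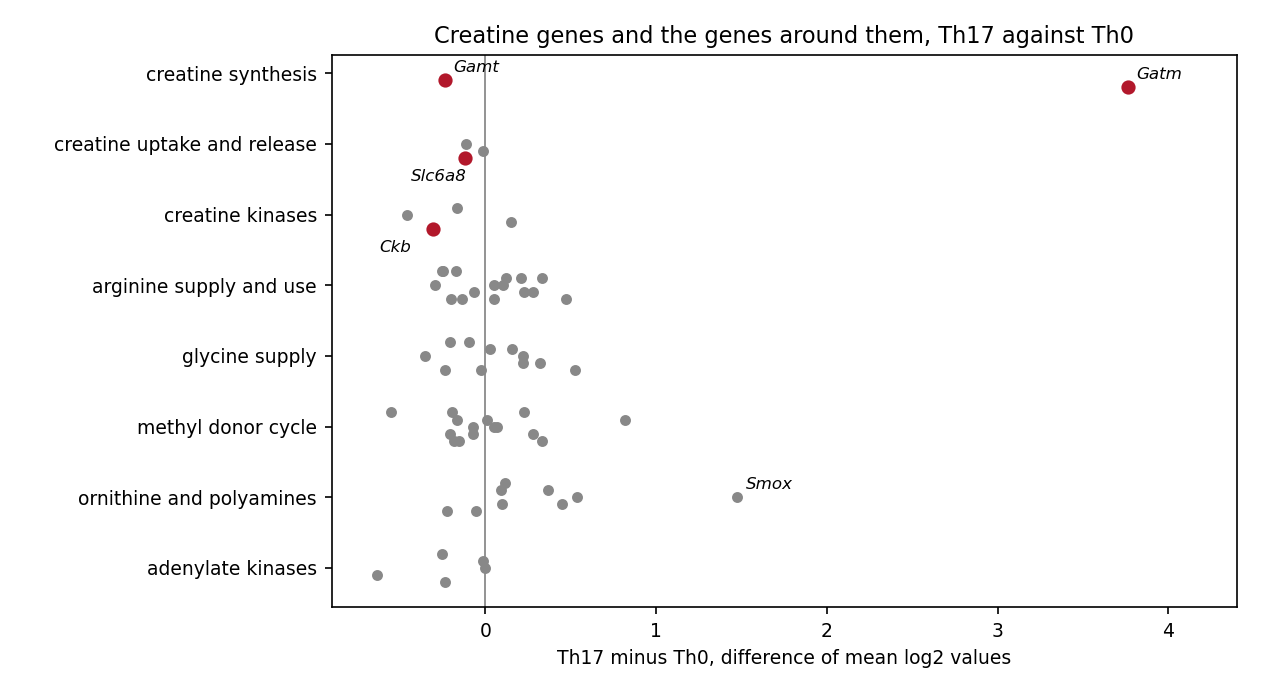
Th17 minus Th0 differences of mean log2 values (horizontal axis) for each measured gene of 8 lists (rows), with the 4 members in red. Gatm lies at 3.76, Smox at 1.48 and every other gene below 1 in size.

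The genes around creatine were read from 8 lists covering its synthesis, transport and kinases, arginine, glycine, methyl groups, ornithine and polyamines, and adenylate kinases. Without Gatm, 64 of their 75 genes were measured, and 11 were not analysed here. In Th17 against Th0 cultures, 0 of the 64 passed the test (limma, adjusted p under 0.05; 0.104% of all genes did) and 2 had an unadjusted p under 0.05, or 3.12% against 5.17% of all genes. The groups did not overlap for 4 of them, or 6.25% against 7.57% of all genes. These were named after their values were seen. Pemt, a methyltransferase of phospholipid synthesis, Cth, which makes cysteine from cystathionine, and Smox were higher in Th17 cultures, a pattern 3.22% of all genes showed, and Ak8, an adenylate kinase, was lower, as were 4.35% of all genes. Of the 64, 23 exceeded the olfactory percentile on no array and 30 exceeded it on every array. A small change of the dim genes may not have been detectable, so the absence of calls does not show an unchanged pathway. The median difference of the 64 was -0.01, against -0.02 for all genes, and 63 of the 64 differed by less than 1 on the log2 scale.

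The exception was Smox, singled out after its values were seen, a spermine oxidase that acts downstream of ornithine in polyamine breakdown. It was at 6.33, 5.83, 5.72 and 6.49 on Th17 replicates 1 to 4, against 4.52, 4.84 and 5.37 in Th2 and 4.30, 4.88 and 4.68 in Th0 cultures. Each Th17 array lay above each of the others. Its difference was 1.48 ± 0.25 (SE) from Th0 and 1.18 ± 0.25 (SE) from Th2, and neither passed the test (limma, adjusted p = 0.0804 and 0.221).

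Ornithine, the by-product of the Gatm step, is metabolised by Oat, the ornithine aminotransferase, and by Odc1, which starts polyamine synthesis. Oat was at 6.96 to 7.62 in Th17, 7.08 to 8.19 in Th2 and 6.85 to 8.04 in Th0 cultures, and Odc1 at 6.62 to 7.79, 6.60 to 7.92 and 6.62 to 7.50. Both sets of ranges overlapped, with differences of -0.22 and 0.10 from Th0 (limma, adjusted p = 0.999 each). Of the 9 of 12 measured genes of ornithine and polyamine metabolism, 7 had a difference above 0 from Th0 and none passed the test, with a median of 0.12.

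Arginine is a substrate of Gatm. Slc7a1, the main cationic amino acid carrier of many cells, was at 7.30 to 8.28 in Th17, 7.63 to 9.29 in Th2 and 7.29 to 7.66 in Th0 cultures, a difference of 0.47 between Th17 and Th0 (limma, adjusted p = 0.999) and of 0.95 between Th2 and Th0 (limma, adjusted p = 0.767). Arg1 and Arg2, the arginases, differed by 0.28 and 0.10, Ass1 and Asl, which rebuild arginine from citrulline, by 0.21 and -0.17, and Nos2, the inducible nitric oxide synthase, by 0.05 (limma, adjusted p = 0.999 each). The Arg1 difference lay in Th17 replicate 1 alone, at 5.23 against 3.96 to 4.05 on the other Th17 arrays. On Th2 arrays Arg1 lay at 3.61 to 3.92, below each Th17 array (difference 0.51; limma, adjusted p = 0.884). Th17 replicate 1 was also the array high in myeloid markers, cells that can express Arg1, and their part in the value was not tested. None of the 16 measured genes of 16 passed the test, and their median difference was 0.05.

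Glycine is the other substrate. Shmt2, the mitochondrial enzyme that makes it from serine, was at 8.27 to 9.06 in Th17, 8.502 to 9.38 in Th2 and 7.70 to 9.17 in Th0 cultures, and Phgdh, which opens serine synthesis, at 5.77 to 6.07, 6.12 to 6.33 and 5.84 to 6.75. Their differences of 0.22 and -0.35 from Th0 did not pass (limma, adjusted p = 0.999 each), nor did any of the 11 measured genes of 13 (median 0.03). Of the methyl donor genes, 15 of 17 were measured with a median of -0.07 and none passed. Ahcy, which clears the S-adenosylhomocysteine left by methyltransferases such as Gamt, was at 6.77 to 7.88 in Th17, 7.10 to 7.67 in Th2 and 6.31 to 7.79 in Th0 cultures (difference from Th0 -0.07; limma, adjusted p = 0.999).

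The other creatine kinases gave low values. Ckm, the muscle form, was at 2.78 to 3.29 in Th17, 2.67 to 3.56 in Th2 and 2.55 to 3.47 in Th0 cultures. Ckmt1 and Ckmt2, the mitochondrial forms, reached at most 3.90 and 2.82 in Th17, 4.16 and 3.08 in Th2 and 4.39 and 3.03 in Th0 cultures. Against Th0 they differed by 0.15, -0.46 and -0.16 in the order Ckm, Ckmt1 and Ckmt2 (limma, adjusted p = 0.999, 0.971 and 0.999). Slc16a12, which carries creatine in human and rat cells, and its relative Slc16a9 differed by -0.01 and -0.11 and stayed at 3.38 or below on all arrays. Of the adenylate kinases, which exchange phosphate between adenine nucleotides, Ak1 differed by -0.24 and Ak4 by -0.63 (limma, adjusted p = 0.999 each), and 5 of the 9 were measured.

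The same 64 genes gave 0 calls in Th17 against Th2 (limma, 0.0766% of all genes were called) and 0 in Th2 against Th0 (0% of all genes). The limit for the dim genes among them holds here too. At an unadjusted p under 0.05 they numbered 5 in Th17 against Th2, or 7.81% against 6.25% of all genes, and 8 in Th2 against Th0, or 12.5% against 6.34%. Groups did not overlap for 8 of them in Th17 against Th2, or 12.5% against 5.6% of all genes, and for 7 in Th2 against Th0, or 10.9% against 8.43%. In Th17 against Th2 they were 2 higher genes, Arg1 and Smox (2.6% of all genes were higher in this way), and 6 lower ones, Slc6a8 among them (3% of all genes). In Th2 against Th0 they were 3 higher genes (4.48% of all genes) and 4 lower ones, Gamt among them (3.94% of all genes). Of the 11 glycine genes 10 were lower in Th17 than in Th2 cultures by value, with a median difference of -0.29 against -0.01 for all genes. Lower too were 12 of 15 methyl donor genes (median -0.18), 6 of 9 ornithine and polyamine genes (-0.24), 4 of 4 creatine kinases (-0.15) and 2 of 3 creatine carriers (-0.21). Of the arginine genes 7 of 16 were lower (median 0.02), and of the adenylate kinases 2 of 5 (0.05). The comparisons share arrays, and no list was tested as a whole.

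The genes next to the 4 members in the RefSeq order were called in none of the 3 comparisons. Of all genes, 0.104% were called in Th17 against Th0, 0.0766% in Th17 against Th2 and 0% in Th2 against Th0. Spata5l1, beside Gatm on chromosome 2, averaged 4.95 in Th17, 5.03 in Th2 and 4.61 in Th0 cultures. Every Th17 and every Th2 array lay above every Th0 array, as for 3.22% and 4.48% of all genes. Every Th17 array lay just below every Th2 array (difference -0.08; limma, adjusted p = 0.976). So it was for Pnck (-0.51; limma, adjusted p = 0.676), a pattern 3% of all genes showed. Between Th17 and Th0 cultures Spata5l1 differed by 0.35 (limma, adjusted p = 0.788), and Slc28a2b, on the other side of Gatm, by -0.11 (limma, adjusted p = 0.999). In the same comparison Ndufs7 and Dazap1 beside Gamt differed by -0.23 and -0.03, and Mark3 and Trmt61a beside Ckb by 0.02 and 0.21. Pnck and Bcap31 beside Slc6a8 differed by -0.13 and -0.58 (limma, adjusted p = 0.989 or above for each of these genes).

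The 5 named genes whose values over the 10 arrays were most like those of Gatm, by Pearson's r, were Plod2, a collagen lysyl hydroxylase (0.97), Pdpn, the membrane glycoprotein podoplanin (0.97), Adam19, a membrane metalloprotease (0.97), Foxo1, a transcription factor of resting lymphocytes (0.96), and Fam3c, a secreted protein (0.95). All of the points share the step between the Th17 arrays and the rest. The Th17 values also entered the r that chose these genes, so their order within Th17 cultures is a description and no separate support. Within the Th17 cultures Pdpn followed the order of Gatm, at 7.26, 5.75, 5.86 and 6.74 on replicates 1 to 4. Foxo1 did so as well, at 8.38, 7.98, 8.10 and 8.16. Plod2 and Adam19 were instead highest on replicate 4 (6.93 and 8.71), and Fam3c was lowest on replicate 3 (7.08). The genes most like the other members were Cfap97d2 (0.92), H2-Eb1 (0.90) and Cstl1 (0.90) for Gamt, Cep85l (0.945), Fancm (0.94) and Ccdc14 (0.94) for Ckb, and Cdh5 (0.94), Vipr2 (0.94) and Slitrk4 (0.93) for Slc6a8, with no gene shared between the 4 sets. Each set holds the highest r among many genes over only 10 arrays. Cfap97d2, Cstl1, Cdh5, Vipr2 and Slitrk4 stayed at 4.17 or below, at or near the dim values, so their r does not show shared expression.

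**Figure D4:**
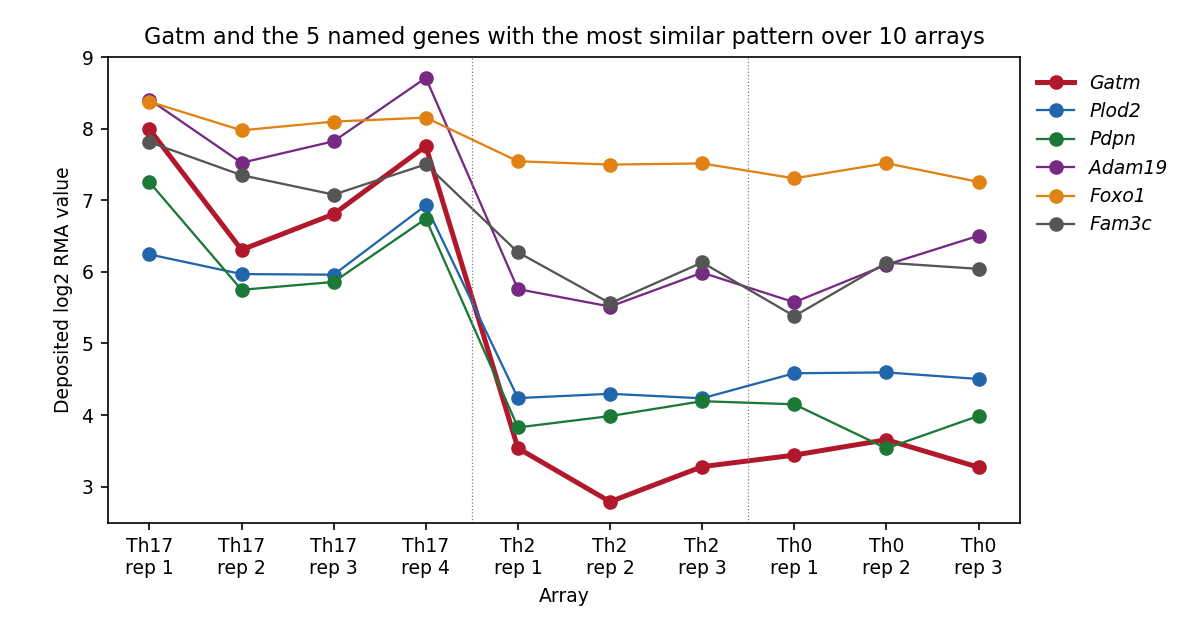
Deposited log2 RMA values (vertical axis) of Gatm and the 5 named genes with the highest Pearson's r to it, on each array (horizontal axis) with dotted lines between cultures. All 6 are higher on each Th17 array than on any other array, and Gatm has the widest step, to 6.31 or above in Th17 cultures against 3.65 or below elsewhere.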

How the data were processed

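Messenger RNA was measured on 1 array for each of 10 samples, grouped by their titles. The description of Th2 replicate 3 carries another number (4), and the title's was used. The deposited values are log2 RMA signals, which are background-corrected, quantile-normalized and summarized by probe set, from Affymetrix Expression Console 1.3.0.187, per the submitters' processing notes. No source used here names the genome build behind the probe sets. Array medians still ran from 3.39 to 3.61, and the number of arrays limits the precision.

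Of 41345 probe sets, 23521 had 1 gene symbol in the platform table, 1814 several and 16010 none. The probe set with the highest mean stood for a gene, with no filter on low values. limma 3.58.1 (R 4.3.3) fitted 3 group means to all 10 arrays, with 7 residual degrees of freedom. Two-sided p-values were adjusted over 22180 genes (Benjamini-Hochberg), with an adjusted p under 0.05 as the threshold of a call. The fit was tested on simulated data. The members, lists and alternatives were chosen with earlier results of these data known. Named were the members, their RefSeq neighbours, a preset group of pathway genes, called pathway genes, the 5 genes most like Gatm and the 3 most like each other member (leaving out gene models, small RNAs and receptor families), and Il17f, Gata3 and Il4. Some of the preset pathway genes were not analysed here.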

Additional observations from a re-analysis of the deposited data

Results flagged for a closer look

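In 49 named genes the highest or lowest of the 4 Th17 arrays was compared with the gap to its nearest neighbour, and 3 stood apart, where chance flags about 1 in 20 groups. Arg1 was at 5.23 on Th17 replicate 1, against 3.96 to 4.05 on the other Th17 arrays. Nos2 was at 3.33 on Th17 replicate 2, against 3.47 on each of the others, and it exceeded the olfactory percentile on 0 of 10 arrays. Ndufs7, beside Gamt on chromosome 10, was at 6.39 on Th17 replicate 4, against 7.02 to 7.06. None of the 4 creatine genes was flagged.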

How the results depend on the processing

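Over 19 alternatives, 10 of them leaving out 1 array, Gamt, Ckb and Slc6a8 were called in none of the 3 comparisons. Gatm was 3.51 to 4.07 above Th0 and 3.76 to 4.32 above Th2 when 1 array was left out, and 4.42 and 4.68 above them without the 3 arrays high in basophil and mast cell genes. Its Th2 minus Th0 difference ran from -0.42 to -0.05 without 1 array and was 0.082 without the 3 arrays apart on the first component, where Th2 is a lone array assumed to vary like the other groups. Ckb in Th2 minus Th0 was 0.36 in that setting and ran from -0.34 to 0.055 without 1 array, and in Th17 minus Th2 it was -0.72 in that setting and ran from -0.36 to 0.035 without 1 array.

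The count of called genes was unstable. In Th17 against Th0 it was 23, and 4 after median centring, 8 with a replicate block, 46 without the 3 arrays apart, 3 without the 3 basophil-high arrays and 2 to 36 without 1 array. In Th17 against Th2 it was 17, and 30 after quantile normalization, 10 with genes of mean under 5 left out, 11 with the replicate block, 6 without the basophil-high arrays and 3 to 298 without 1 array. In Th2 against Th0 it was 0 (limma, with 1407 genes at an unadjusted p under 0.05), and 2 without the arrays apart and 0 to 431 without 1 array. The highest count of each leave-one-out range, 36, 298 and 431, came without Th2 replicate 1, the only setting that called pathway genes: Smox in Th17 against Th0 (limma, adjusted p = 0.0452, over all alternatives 0.0452 to 0.613), Shmt1 in Th17 against Th2, and Mtap, Mtrr and Shmt1 in Th2 against Th0. The cause was not tested. Gata3 in Th17 against Th0 missed the threshold in 12 of the 19 alternatives (-2.08 to -1.62).

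Uncalled Th17 minus Th0 differences that changed sign were Slc16a12 at 0.0090 after quantile normalization, and, with the replicate block and without the arrays apart alike, Odc1 at -0.11, Ahcy at 0.052 and Dazap1 at 0.071. Without the basophil-high arrays they were Slc16a12 at 0.082, Slc16a9 at 0.11, Arg2 at -0.19, Shmt2 at -0.25, Slc28a2b at 0.23 and Mark3 at -0.12. Without 1 array the ranges were -0.14 to 0.052 for Slc16a12, -0.25 to 0.048 for Slc16a9, -0.13 to 0.31 for Odc1, -0.52 to 0.22 for Ahcy, -0.25 to 0.081 for Dazap1, -0.10 to 0.26 for Arg2, -0.16 to 0.57 for Shmt2, -0.31 to 0.011 for Slc28a2b, -0.064 to 0.080 for Mark3, -0.026 to 0.39 for Arg1, -0.47 to 0.044 for Asl, -0.057 to 0.40 for Ckm and -0.55 to 0.039 for Oat.

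Arrays with the same number in their titles showed no pairing. Their deviations from the group means correlated at -0.31 to 0.30 (9 pairs), against -0.58 to 0.49 for others (24 pairs). By these numbers, 1 of 10 arrays correlated best with its own number. The 0.49 was between Th17 replicate 4 and Th2 replicate 3, whose description carries the number 4. Pairing by that number was not tested, so pairing is not excluded. The block used the titles' numbers and changed no call of the 4 genes. Leaving out genes of mean under 5 removed Gatm, Gamt and Slc6a8, so that setting gave them no value. Low signal limits what can be said of Gamt and Slc6a8.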
